A study of Mus musculus with 55 samples.

Results

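Lipid droplet and steatosis marker genes are 10 genes taken by symbol from the 37620 genes in the files: Cidea, Cidec, Plin2, Plin4, Plin5, G0s2, Cd36, Vldlr, Mogat1 and Pparg. Their mRNA levels were followed in the livers of 55 male mice from 29 lines of the Collaborative Cross (CC), a panel of inbred mouse lines bred from several founder strains so that mice of a line are nearly identical genetically. All mice were naive and untreated, fed standard chow, between 8 and 11.9 weeks old and between 12.8 and 38.0 g in body weight (median 23.0 g). By the labels, 8 lines had 1 mouse, 16 had 2 and 5 had 3. Mice of a line are numbered in the order of their records, and the numbers carry no other meaning. The labels give body weight but no liver fat or histology, so the levels describe mRNA only.

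Hepatocytes store excess fatty acids as triglyceride in lipid droplets, which are enclosed by coat proteins of the perilipin (Plin) and CIDE families. Coat proteins and inhibitors such as G0s2 set how fast lipases reach the stored fat, while surface receptors bring fatty acids and lipoproteins into the cell. Pparg, a nuclear receptor best known from adipocytes, raises the expression of several of these genes in fatty livers, which is why they are read as markers of steatosis.

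The sequences upstream of the annotated starts are shown for Cidec, Plin5 and Pparg, because each of these genes has transcripts with different first exons, some of whose shares are described later, and for Plin2 because its window holds a near match to the repeat bound by PPAR receptors. They are RefSeq promoter sequences (table build GRCm38.p6) whose position was found by matching them to the mm9 genome of the files, with exon bases removed, and are written 5′ to 3′ on the strand of the gene. Capitals mark the nuclear receptor hexamer AGGTCA on either strand, or in Plin2 a stretch of 13 bases that holds 1 such hexamer and, 1 base apart, a second that differs from it at 2 bases.
Cidec-001 (chr6:113385755-113386004, minus strand): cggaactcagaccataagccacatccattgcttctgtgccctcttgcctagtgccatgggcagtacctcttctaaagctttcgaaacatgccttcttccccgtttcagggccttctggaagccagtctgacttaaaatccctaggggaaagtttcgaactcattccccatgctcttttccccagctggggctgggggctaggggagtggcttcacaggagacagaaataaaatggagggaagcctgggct
Cidec-003 (chr6:113384759-113385008, minus strand): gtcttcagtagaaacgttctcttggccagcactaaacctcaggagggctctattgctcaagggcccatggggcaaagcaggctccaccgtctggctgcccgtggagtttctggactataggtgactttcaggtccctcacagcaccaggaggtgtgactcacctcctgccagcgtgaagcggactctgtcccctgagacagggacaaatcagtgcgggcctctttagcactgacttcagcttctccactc
Plin5-001 (chr17:56257020-56257221, minus strand): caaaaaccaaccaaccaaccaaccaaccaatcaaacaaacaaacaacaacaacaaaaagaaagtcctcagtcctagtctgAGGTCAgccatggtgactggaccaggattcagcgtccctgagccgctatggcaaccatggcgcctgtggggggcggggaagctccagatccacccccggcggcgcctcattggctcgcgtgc
Plin5-002 (chr17:56256722-56256924, minus strand): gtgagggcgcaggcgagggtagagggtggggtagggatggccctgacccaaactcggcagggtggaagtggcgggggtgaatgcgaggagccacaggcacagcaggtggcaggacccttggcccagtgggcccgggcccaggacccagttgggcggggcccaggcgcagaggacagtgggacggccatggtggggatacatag
Pparg-202 (chr6:115310912-115311211, plus strand): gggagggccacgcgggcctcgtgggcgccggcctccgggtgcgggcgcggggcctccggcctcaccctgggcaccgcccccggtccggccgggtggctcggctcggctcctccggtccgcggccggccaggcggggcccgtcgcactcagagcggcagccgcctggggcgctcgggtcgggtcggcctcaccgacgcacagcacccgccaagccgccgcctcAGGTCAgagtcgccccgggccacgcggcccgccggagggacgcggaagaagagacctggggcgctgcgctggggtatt
Pparg-201 (chr6:115371834-115372083, plus strand): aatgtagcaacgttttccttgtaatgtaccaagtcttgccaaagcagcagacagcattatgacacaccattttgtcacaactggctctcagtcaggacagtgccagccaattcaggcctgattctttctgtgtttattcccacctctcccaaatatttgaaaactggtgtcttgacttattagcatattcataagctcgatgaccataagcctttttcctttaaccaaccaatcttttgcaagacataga
Plin2-001 (chr4:86315965-86316213, minus strand): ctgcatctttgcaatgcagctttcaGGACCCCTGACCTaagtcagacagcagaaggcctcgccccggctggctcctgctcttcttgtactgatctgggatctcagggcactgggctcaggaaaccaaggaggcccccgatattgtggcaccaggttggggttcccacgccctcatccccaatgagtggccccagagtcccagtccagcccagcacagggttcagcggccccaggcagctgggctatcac

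The promoter table held 14 windows of 300 bases for 9 of the genes. The letters AGGTCA, searched on both strands, occurred in 6 of the 14 windows and in 16.3% of all 32851 promoters. The 6 windows belonged to Plin2, Cd36, Pparg and Plin5 only, so some share a gene and they are not independent. The windows of Plin5 overlap, although the hexamer marked in Plin5-001 lies outside the overlap. The repeat (AGGTCA, any base, AGGTCA, with at most 2 of the 12 bases different) occurred in 3 windows, those of Mogat1, Plin2 and Cd36, and in 3.86% of all promoters, and its exact form in 0 of the 14 and in 0.0396% of all. In 1 window, that of Plin2, an exact hexamer was part of the repeat. TATAAA and CACGTG occurred in 1 window each, against 13.6% and 7.15% of all promoters. A match describes the letters in a window and not a bound site.

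Between 20.5 M and 33.95 M fragments were assigned to genes per mouse (median 27.7 M). For 42 of the 47 mice that have mates, the nearest profile was that of a mate by Spearman correlation over genes. The other 5 were both mice of IL-1052 and mice 2 and 3 of IL-2750, which lay nearest to each other across these lines, and mouse 2 of IL-3912, which lay nearest to mouse 2 of IL-3348. No 2 libraries were identical. The summed level of 6 hepatocyte markers ranged from 24878 to 66900 FPKM (fragments scaled for transcript length and for the depth of the mouse), so the tissue label held in every mouse. In whole liver, a change in the number of cells of a type cannot be told apart from a change in RNA per cell.

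Cidea, a CIDE protein that fuses lipid droplets in brown fat and in fatty liver, was near 0 in all livers but 1. It was listed at 0 in 26 of the 55 mice, its median was 0.03 FPKM, and 1 mouse, mouse 2 of IL-1052, reached 21.4 FPKM with 620 fragments. The mate of that mouse was at 0. The gene did not pass the filter on low counts, so it was not tested, and 1 of 10 genes is therefore without a test.

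Mouse 2 of IL-1052 also carried adipocyte transcripts. Ucp1, the uncoupling protein of brown fat, was at 41.5 FPKM there and at most at 0.19 FPKM in the other 54 mice. Adipoq, the adipocyte hormone adiponectin, was at 8.82 FPKM against at most 1.57 FPKM. Plin1, the droplet coat of adipocytes, was at 4.57 FPKM against at most 0.61 FPKM, and the adipocyte fatty acid carrier Fabp4 at 167 FPKM against at most 90.6 FPKM. Of the other adipocyte markers, the adipsin gene Cfd reached 5.88 FPKM and the glycerol channel Aqp7 0.85 FPKM, while the hormone genes Retn and Lep were at 0.80 and 0.06 FPKM. The highest values of Adipoq, Retn, Cfd, Plin1 and Aqp7 among the others were all in mouse 2 of IL-785, where Retn was at 1.03 FPKM and Cfd at 5.53 FPKM. Over all mice the 8 adipocyte markers summed to between 2.06 and 230 FPKM with a median of 8.80 FPKM. The part of these transcripts in the values of Cidea, Cidec, Plin4 and Cd36 in mouse 2 of IL-1052 was not tested, and results for these genes that turn on that mouse are also given without it.

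Cidec, the related droplet protein that enlarges droplets and whose hepatic mRNA is known to rise in steatosis, was low in most livers and high in a few lines. Its level ranged from 0.13 through a median of 0.49 to 13.1 FPKM. The highest line was IL-4457, whose mice were at 10.3 and 13.1 FPKM, followed by IL-4141 with 5.70 FPKM and IL-2126 with 4.35 FPKM, which have 1 mouse each. IL-1052 had a mean of 5.33 FPKM, from mice at 0.45 and 10.2 FPKM. The fifth line, IL-219, was at 1.19 FPKM, so a gap separated the means of the highest lines from the rest. Mouse 1 of IL-2156, whose value is given below, lay within this gap. The lowest line was IL-611 at 0.163 FPKM. Mouse 2 of IL-785 was at 1.09 FPKM against 0.46 and 0.21 FPKM in its mates.

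Plin2, the coat protein found on droplets of most cells, was the most abundant of the 10 genes and the one whose lines lay closest together, with a top line 3.74 times the bottom one. Its level ranged from 77.1 through 164 to 375 FPKM, and line means from 83.9 FPKM in IL-2146 to 314 FPKM in IL-3438, where the mice were at 364 and 264 FPKM. The highest single mouse, in IL-521, was at 375 FPKM with a mate at 211 FPKM. The mice of IL-3438 and IL-521 thus overlapped.

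Plin4, a perilipin of adipocytes and muscle that coats small droplets, was low, between 0.04 and 2.96 FPKM with a median of 0.29 FPKM. The mice of IL-2680 were at 2.49 and 2.11 FPKM and those of IL-3912 at 2.96 and 1.17 FPKM. The next mean was 0.995 FPKM in IL-219, from mice at 0.47 and 1.52 FPKM, and mouse 2 of IL-1052 was at 1.17 FPKM. By mouse, IL-3912 thus overlapped with these lines and IL-2680 did not. The lowest line was IL-670 at 0.11 FPKM.

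Plin5, the perilipin of tissues that oxidise fat, which tethers droplets to mitochondria, ranged from 4.43 through 9.55 to 26.9 FPKM. The mice of IL-4052 were at 26.9 and 18.4 FPKM and those of IL-219 at 19.4 and 22.3 FPKM. The lowest line was IL-4457, with mice at 4.84 and 4.43 FPKM, next to IL-2126 at 5.23 FPKM. The mice of the highest and the lowest of these lines did not overlap.

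G0s2, an inhibitor of the triglyceride lipase Pnpla2 (ATGL), had the widest range among the well measured genes, from 0.73 through 20.7 to 165 FPKM. The mice of IL-3438 were at 165 and 53.2 FPKM, and the mouse of IL-1141 was at 104 FPKM. At the other end the mice of IL-4457 were at 1.70 and 0.73 FPKM, the mouse of IL-4141 at 2.13 FPKM and the mouse of IL-2126 at 2.91 FPKM. These 3 lines, all low in G0s2, were the lines with the highest Cidec apart from IL-1052. The next line up was IL-519 at 6.96 FPKM.

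**Figure D1:**
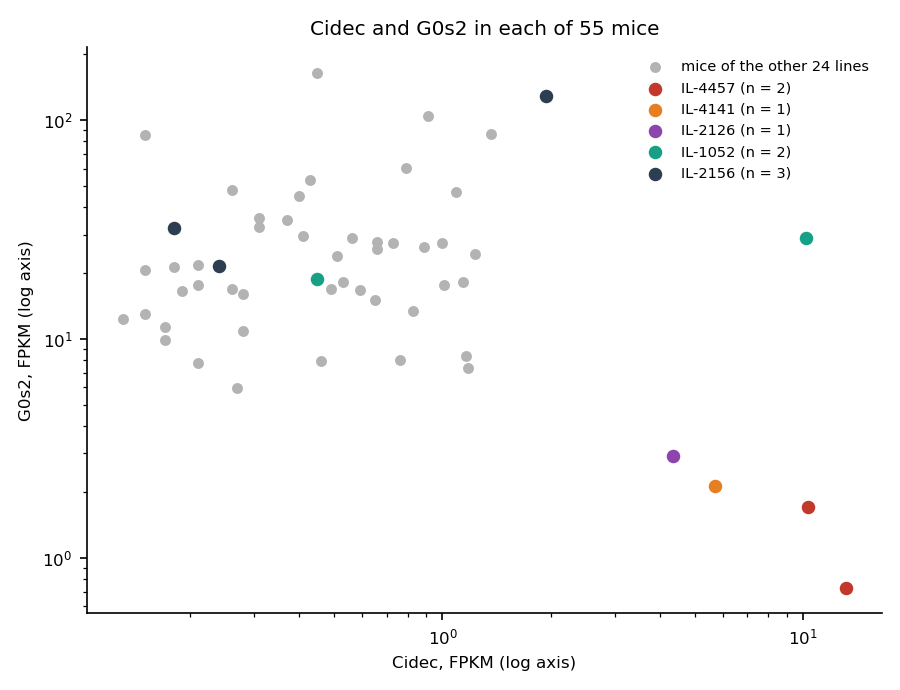
Cidec (horizontal) and G0s2 (vertical) in each of the 55 livers, in FPKM on log axes; each point is a mouse, and the 4 lines with the highest mean Cidec and IL-2156 are coloured. The mice of IL-4457 sit at the lower right, at 10.3 and 13.1 FPKM of Cidec and 1.70 and 0.73 FPKM of G0s2, with IL-4141 and IL-2126 beside them.

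Cd36, a fatty acid translocase on the cell surface, ranged from 2.07 through 7.17 to 39.0 FPKM. The highest lines were IL-2693 at 39.0 FPKM, IL-1452 at 29.5 FPKM and IL-557 at 27.4 FPKM, each from 1 mouse, and the mice of IL-521 were at 28.1 and 16.2 FPKM. The lowest line was IL-4141, at 2.25 FPKM from 1 mouse, although single mice of IL-2750 and IL-2146 were lower, at 2.07 and 2.14 FPKM. Mouse 2 of IL-1052 was at 13.5 FPKM and its mate at 3.06 FPKM.

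Vldlr, the receptor for very low density lipoprotein, which takes up triglyceride-rich particles, was low, from 0.02 through 0.21 to 2.33 FPKM. The mice of IL-3348 were at 2.33 and 1.16 FPKM, those of IL-521 at 1.87 and 1.05 FPKM, and the mouse of IL-2693 at 2.13 FPKM. IL-519 was lowest, at 0.04 and 0.02 FPKM. The mice of IL-3348 and IL-521 were all above both of those mice.

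Mogat1, which makes diacylglycerol from monoacylglycerol and is known to rise in fatty liver, was at the edge of detection. It ranged from 0 through 0.22 to 5.86 FPKM, with a median of 5 fragments per mouse and 18 of the 55 mice at 10 fragments or more. The highest value belonged to mouse 1 of IL-2156, whose mates were at 0.26 and 0.29 FPKM. A level per line is therefore uncertain for this gene.

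Pparg ranged from 0.06 through 2.62 to 5.77 FPKM. It was highest in IL-3348 (4.28 and 5.52 FPKM) and IL-3438 (5.77 and 4.02 FPKM). Its order was set apart at the low end: the mice of IL-2680 were at 0.06 and 0.14 FPKM, those of IL-785 at 0.47, 0.69 and 0.28 FPKM, those of IL-219 at 0.90 and 0.36 FPKM and those of IL-4052 at 0.79 and 0.70 FPKM. IL-2680, lowest in Pparg, was the line highest in Plin4. Over the 29 line means, however, the Spearman rho of Plin4 with Pparg was -0.03 (p = 0.886, permutation test).

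**Figure D2:**
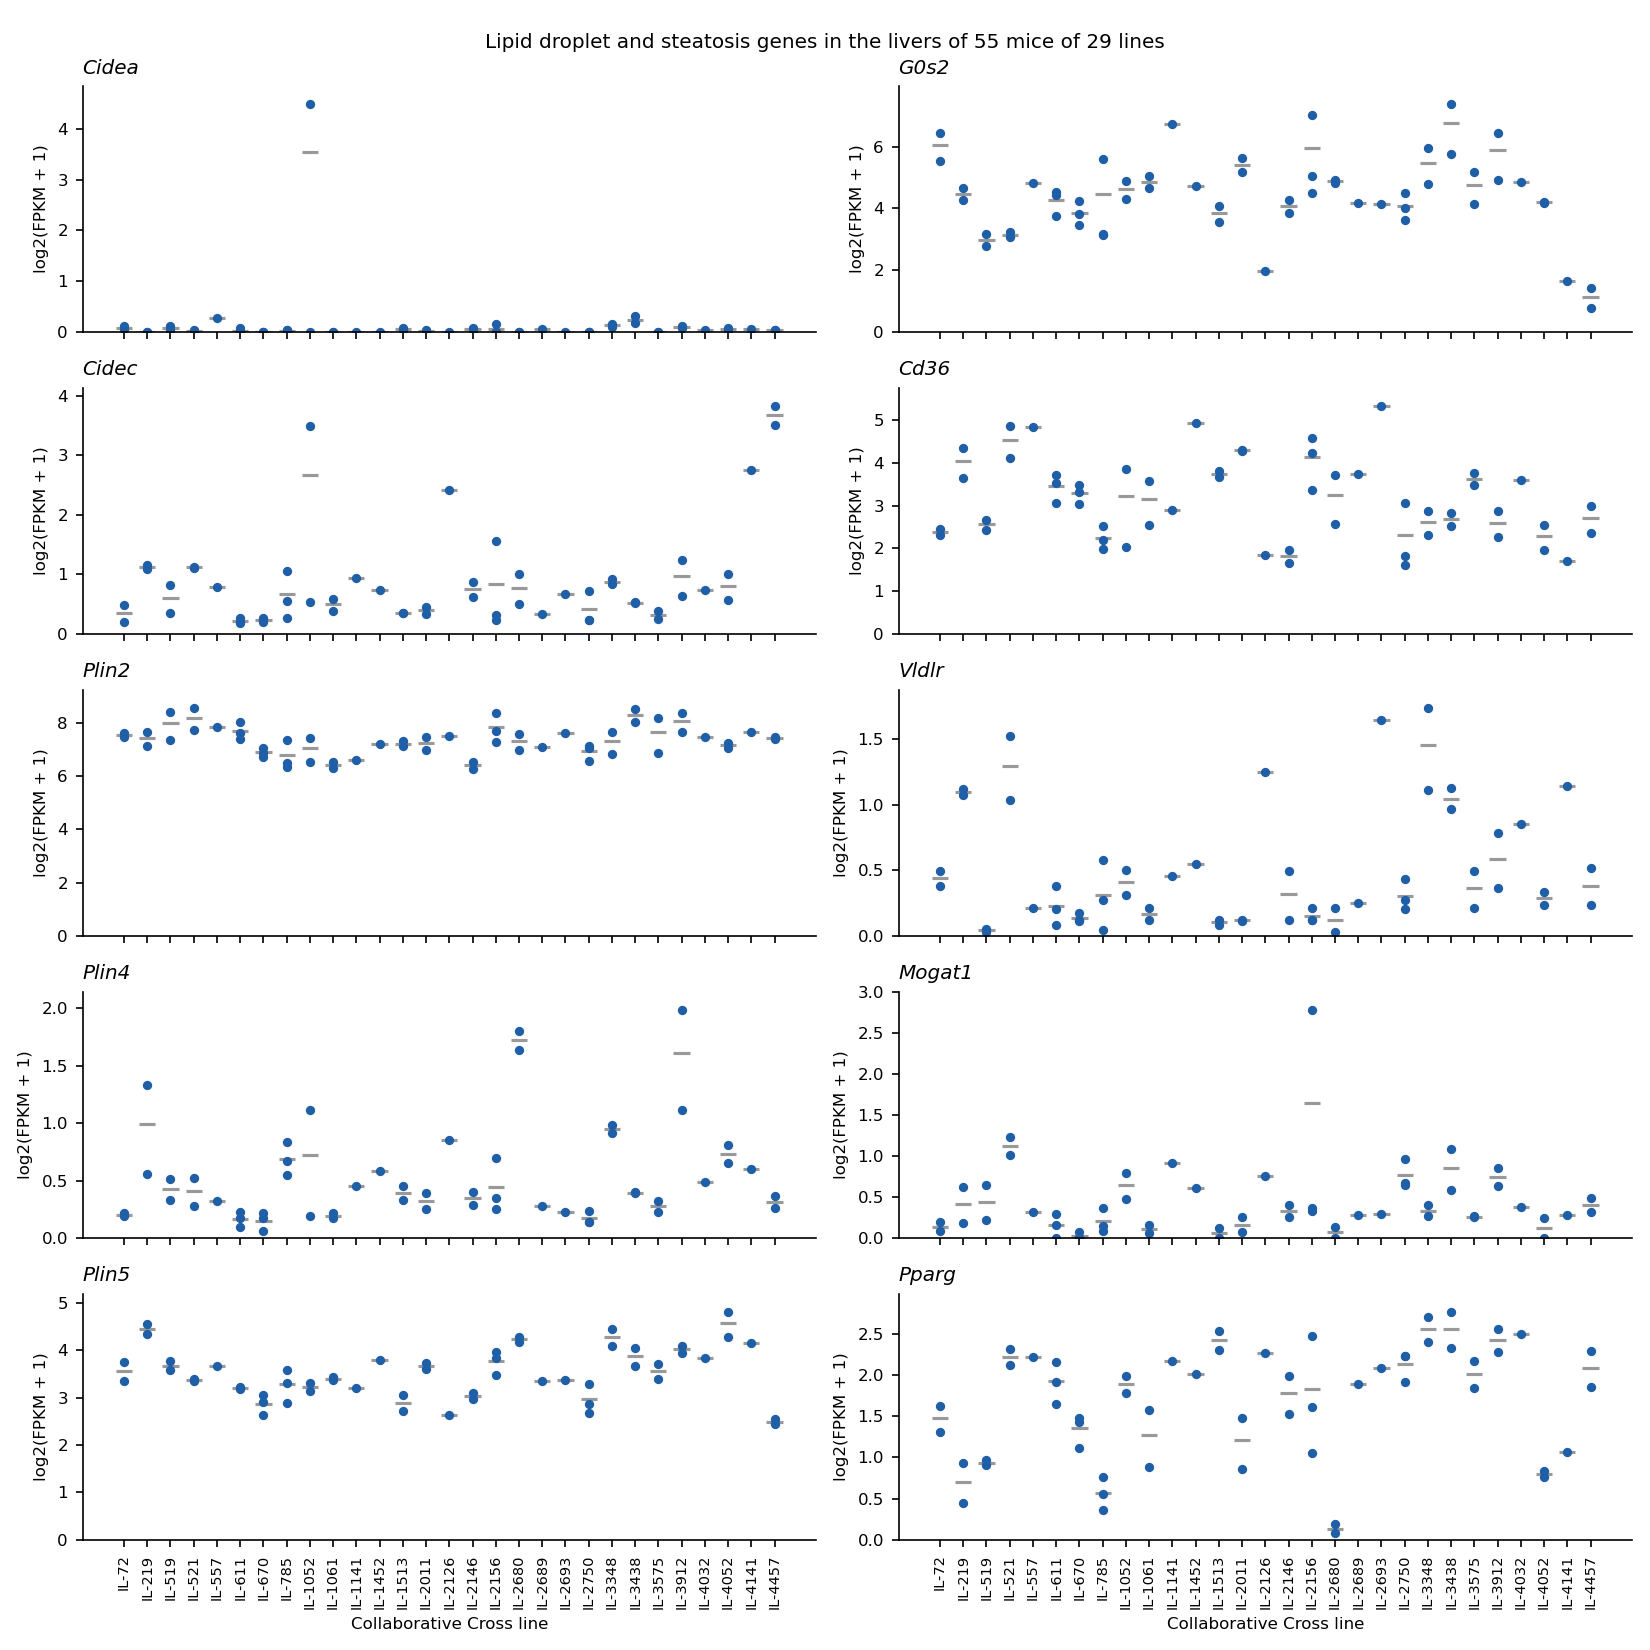
Level of each of the 10 genes, as log2(FPKM + 1), against the 29 lines; each point is a mouse and each grey bar the mean of a line. Cidea rises above the base in 1 mouse of IL-1052, Cidec is high in IL-4457, and Pparg is lowest in IL-2680.

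Line mates resembled each other for most of these genes. The share of the variance of log2(FPKM + 1) that lay between lines was estimated as an intraclass correlation over all 55 mice of the 29 lines. It was 0.847 for Plin5, 0.839 for Vldlr, 0.808 for Pparg, 0.713 for Cd36, 0.704 for Plin4, 0.695 for G0s2 and 0.639 for Cidec. It was lower for Plin2 (0.415) and Mogat1 (0.115), against a median of 0.570 over all tested genes. Without mouse 2 of IL-1052 the share was 0.845 for Cidec, 0.783 for Plin4 and 0.779 for Cd36, and for Cidea it went from -0.0733 to 0.630. When the 21 lines with mates were put in the order of their means, neighbouring lines mostly did not separate. Of the 20 pairs of neighbours, the mice overlapped in 17 pairs for Plin5 and G0s2, in 18 for Plin4, Vldlr and Pparg, in 19 for Cidea, Cidec, Plin2 and Cd36, and in 20 for Mogat1. Neighbours in such an order lie close by construction. The count was not made over all genes, so it does not set these genes apart.

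All 9 tested genes differed among lines (edgeR quasi-likelihood test, adjusted p below 0.05), as did 88.5% of the 15285 genes tested. The adjusted p was 4.39e-08 for Plin5, 6.75e-08 for Vldlr, 8.38e-08 for Pparg, 4.45e-07 for Cidec and 5.2e-07 for Plin4. It was 2.53e-05 for Cd36, 3.85e-05 for G0s2, 0.000225 for Mogat1 and 0.00238 for Plin2. With so high a share over all genes, the count of 9 does not set these genes apart. Mogat1 did not pass with limma on log2(FPKM + 1), with an adjusted p of 0.091.

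A line was described as raised for a gene where its mean was at least 2 times the median of the 29 line means. Of the 261 combinations of the 9 tested genes with a line, 41 (15.7%) were raised, against 5.55% over all tested genes. Mogat1 was raised in 9 lines, Vldlr in 8, Plin4 in 7, G0s2 and Cd36 in 6, Cidec in 4 and Plin5 in 1, and Plin2 and Pparg in 0. The median of the line means was only 0.255 FPKM for Mogat1, 0.285 FPKM for Vldlr and 0.325 FPKM for Plin4. For G0s2 and Cd36 it was 21.3 and 8.30 FPKM. The part of such low medians in the share of 15.7% was not tested. In lines with mates, 27 combinations were raised, and in 14 of them every mouse of the line was itself at 2 times the median or more. At least 1 gene was raised in 20 lines and at least 3 in 7. Being raised is a description and carries no test.

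The line with the most raised genes was IL-2126, a line with 1 mouse of 17.8 g, with 4: Cidec, Plin4, Vldlr and Mogat1. Of all tested genes 9.12% were raised in that mouse, against 5.55% over all lines. In the 6 lines with 3 raised genes the combination varied. IL-3348 was raised for Plin4, G0s2 and Vldlr, IL-3438 for G0s2, Vldlr and Mogat1, IL-3912 for Plin4, G0s2 and Mogat1, and IL-521 for Cd36, Vldlr and Mogat1. These combinations also turned partly on single mice. Without mouse 1, G0s2 was not raised in IL-3348, nor Mogat1 in IL-3438, nor Cd36 in IL-521. Without mouse 2, G0s2 was not raised in IL-3912. In the remaining lines all 3 genes rested on 1 mouse. In IL-1052, raised for Cidec, Plin4 and Mogat1, 0 genes were raised without mouse 2, and in IL-2156, raised for G0s2, Cd36 and Mogat1, 0 genes were raised without mouse 1. IL-4052, raised for Plin4 and Plin5, also had 0 without its first mouse. The share of all tested genes raised was 8.36% in IL-2156, 8.27% in IL-3912, 5.06% in IL-3348, 5.04% in IL-521, 4.06% in IL-3438 and 3.29% in IL-1052.

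**Figure D3:**
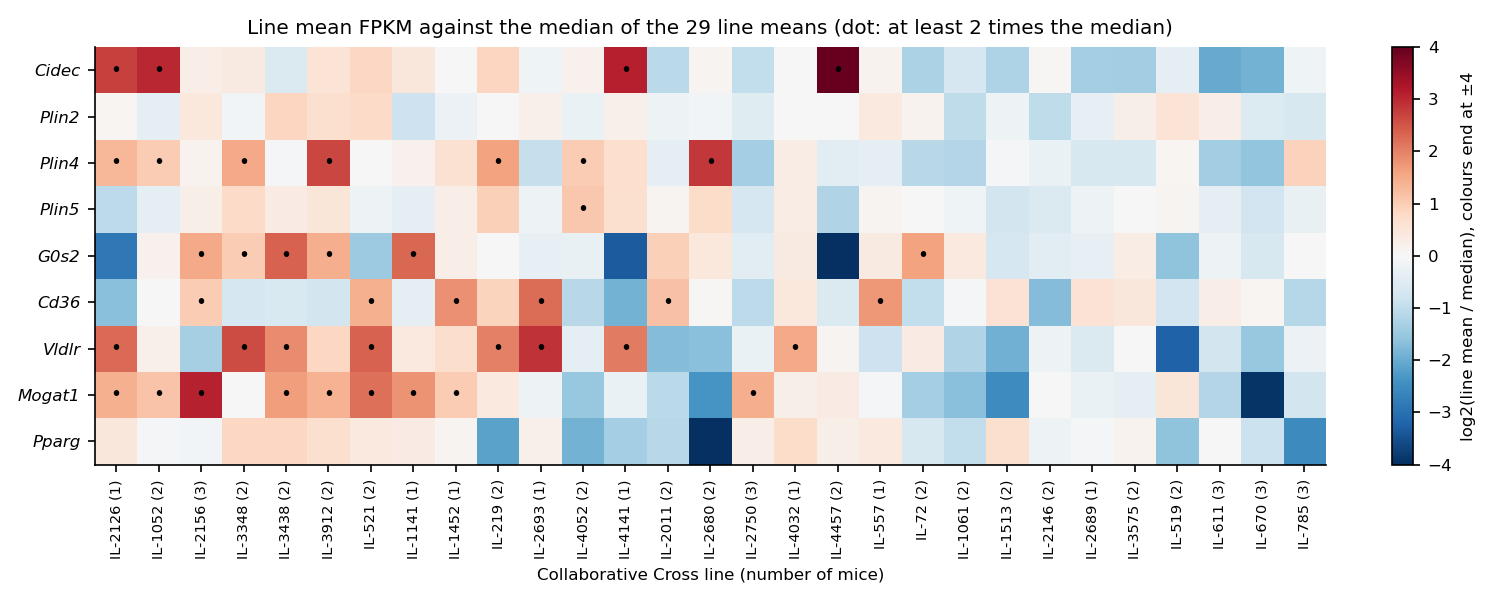
Line mean against the median of the 29 line means, as log2, for the 9 tested genes (rows) in each line (columns, with the number of mice); red is above and blue below the median, and a dot marks at least 2 times the median. No line is raised for all genes, and IL-2126 holds 4 dots.

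Each of the 21 lines with mates was compared with the mean of the other 20 for each tested gene. Of these 189 contrasts, 34 were higher and 20 lower (edgeR, adjusted p below 0.05), against 10.9% higher and 7.18% lower over all tested genes. When each mouse of the line in question was left out in turn, 9 of the higher and 5 of the lower calls held every time. A line reduced to 1 mouse was assumed to vary like the others.

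Cidec was higher in IL-4457 by 4.44 ± 0.38 on the log2 scale (± SE, adjusted p = 9.57e-11), a call that held without either mouse. It was also higher in IL-1052 by 3.11 ± 0.44 (adjusted p = 1.82e-05), but this call was lost without mouse 2, where the difference was -0.51, and with limma on log2(FPKM + 1), where the adjusted p was 0.0532. G0s2 was lower in IL-4457 by a log2 difference of -4.25 ± 0.81 (adjusted p = 9.25e-05), and Plin5 was lower in the same line, at -1.16 ± 0.20 (adjusted p = 2.64e-05). IL-4457 thus had the highest Cidec together with the lowest G0s2 and Plin5, while its Plin2, at 169 and 178 FPKM, was near the median of 164 FPKM. Transcripts of bile duct cells stood high in the same livers. The 3 cholangiocyte markers (Krt19, Krt7 and Epcam) summed to 6.22 and 8.39 FPKM in the mice of IL-4457, 3.27 FPKM in that of IL-2126 and 2.70 FPKM in that of IL-4141. In all other mice they summed to between 0.32 and 1.65 FPKM, except in mouse 1 of IL-3348, at 8.11 FPKM. The line mean of Epcam was highest in IL-4457, at 5.46 FPKM over a median of 0.33 FPKM per mouse. Epcam thus made up most of the sum in that line. The line mean of Krt19 was highest in IL-3348, and that of Krt7 in IL-2126. The part of these transcripts in the values of these lines was not tested.

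Of the perilipins, Plin4 was higher in IL-2680 by 2.69 ± 0.33 (adjusted p = 5.36e-07) and in IL-3912 by 2.53 ± 0.34 (adjusted p = 1.96e-06). Plin5 was higher in IL-4052 by 1.21 ± 0.15 (adjusted p = 1.87e-06) and in IL-219 by 0.93 ± 0.16 (adjusted p = 0.000136), and lower in IL-670 at -0.69 ± 0.16 (adjusted p = 0.00185). All 5 of these calls held without each mouse of the line. The call of Plin2 as higher in IL-3438 (0.96 ± 0.27, adjusted p = 0.0255) was lost without either mouse, with differences of 0.72 and 1.16. Its call as lower in IL-2146 (-0.99 ± 0.33, adjusted p = 0.014) was lost likewise, at nearly the same differences of -1.08 and -0.89.

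Vldlr was higher in IL-3348 by 3.03 ± 0.33 (adjusted p = 1.74e-07), in IL-521 by 2.56 ± 0.36 (adjusted p = 6.94e-06) and in IL-3438 by 2.41 ± 0.36 (adjusted p = 4.69e-05), in each case also without either mouse. Pparg was lower in IL-2680, at -4.45 ± 0.56 (adjusted p = 8.66e-07), and in IL-785, at -1.94 ± 0.35 (adjusted p = 0.000121), and both calls held without each mouse of the line. Pparg was called higher in 7 lines by smaller amounts, and none of these calls held each time. Cd36 was higher in IL-2156 by 1.21 ± 0.27 (adjusted p = 0.0009), which held without each of its mice. Without mouse 1 it held only narrowly, at a difference of 0.88 (edgeR, adjusted p = 0.0489). The calls of Mogat1 in IL-2156 (3.65 ± 0.49, adjusted p = 1.72e-06) and of G0s2 in IL-3438 (2.42 ± 0.39, adjusted p = 0.000118) were lost without the highest mouse of the line, where the differences were 0.57 and 1.41.

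The files also give the share of each transcript in percent of its gene. By rules modelled on those of the study, which keep 1 transcript per gene with enough distinct levels, and which need not give the same set of traits as the study's, 6 of the 10 genes had such a trait: Cidec, Plin5, Cd36, Vldlr, Mogat1 and Pparg. The shares differed among lines for Plin5 and Cd36, 2 of 6, against 33.5% of the 6650 traits of all genes (limma on van der Waerden scores, adjusted p = 0.00539 and 0.0286). The adjusted p was 0.0955 for Pparg, 0.214 for Cidec, 0.467 for Vldlr and 0.838 for Mogat1. When raw percentages were tested, Cd36 did not pass (adjusted p = 0.0671).

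Plin5 has a pair of annotated transcripts that differ in the first exon, Plin5-001 (ENSMUST00000019808) and Plin5-002 (ENSMUST00000113072), whose upstream sequences were printed first. Plin5-001 took between 42.8% and 93.9% of the gene's transcripts, with a median of 66.6%. In IL-4052 the mice were at 42.8% and 53.7%, and in IL-670 at 88.9%, 72.5% and 93.9%. These lines did not overlap. At least 208 fragments of Plin5 were counted in each mouse.

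Lines with more Plin5 had a lower share of Plin5-001. Over the 29 line means, the share and the log2 level of the gene had r = -0.74 (p = 2e-05) and rho = -0.74 (p = 3e-05, 0.00161 after adjustment over the 6650 traits, permutation tests), and r = -0.67 without the 2 lines farthest from the median share, IL-4052 and IL-2680. Over all traits, 8.78% passed by Spearman correlation. A relation of the same sign was found for the Cidec transcript ENSMUST00000032416, which is not Cidec-001 (rho = -0.59, adjusted p = 0.0164, permutation test), where mice had as few as 5 fragments of the gene. It did not pass for Pparg (rho = 0.38, adjusted p = 0.21), Cd36 (0.37, 0.231), Mogat1 (0.27, 0.421) or Vldlr (0.18, 0.639). How RSEM divided fragments between transcripts that share most exons bears on each of these shares and was not tested.

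Pparg-201 (ENSMUST00000000450), which starts from a first exon downstream of that of Pparg-202 (ENSMUST00000171644), made up between 0% and 71.8% of Pparg transcripts with a median of 19.2%. Its mean share was 56.6% in IL-4457, and 18 of the 55 mice were at 0%. These included both mice of IL-2680 on 3 and 7 fragments of the gene and both of IL-219 on 35 and 14, where so few fragments do not measure an absence. They also included both mice of IL-2011 on 39 and 78 fragments and the mouse of IL-4032 on 245. In IL-2750 mouse 1 was at 0% on 177 fragments, while its mates were at 39.8% and 36.8%, so a listed 0% also occurred on many fragments and beside high shares within a line. Cd36 differed by its transcript ENSMUST00000165232, at 3.83% and 6.84% in the mice of IL-72 and at 45.6% and 45.0% in those of IL-2146.

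Of the Cidec transcripts, ENSMUST00000032416 had a median share of 62.3% and Cidec-003 (ENSMUST00000113091) of 30.6%, with 43.95% and 41.9% of Cidec-003 in the mice of IL-4457. Cidec-001 (ENSMUST00000113089) was listed above 0 in 7 of the 55 mice and at 0 in 48. The 7 were the mouse of IL-2126 (59.2% of Cidec), both mice of IL-4457 (19.1% and 14.03%), mouse 2 of IL-1052 (43.9%), mouse 1 of IL-2156 (69.1%), mouse 2 of IL-785 (85.5%) and mouse 1 of IL-4052 (100%). The first 5 of these were among the mice with the most Cidec fragments, while the mouse of IL-4141, with 183 Cidec fragments, was at 0%. In the mouse of IL-4052 the value rests on 25 fragments. The transcript is longer than ENSMUST00000032416 by only 17 bases and differs from it in the first exon and at the end, so few fragments tell the 2 apart. These mice were singled out after their values were seen.

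**Figure D4:**
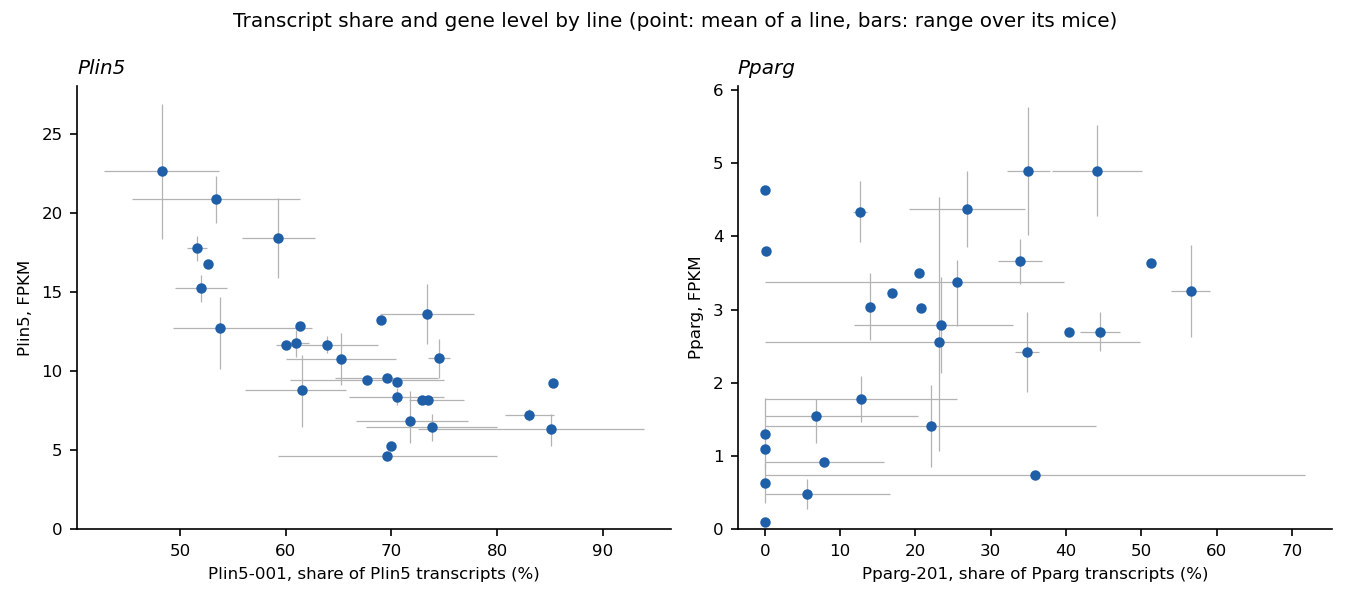
Level of Plin5 (left) and Pparg (right) in FPKM against the share of a transcript in percent; points are means of the 29 lines and bars the range over the mice of a line. The level of Plin5 falls from left to right as the share of Plin5-001 rises (r = -0.74), and several lines sit at 0% of Pparg-201.

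Few pairs of these genes passed a test of moving together over lines. Among the 36 pairs of the 9 tested genes, 1 pair passed by Spearman correlation over the 29 line means and 1 by Pearson correlation, after adjustment over the 137556 correlations of these genes with all tested genes, of which 0.101% and 1.37% passed. The Spearman pair was Cidec with Plin4 (rho = 0.69, p = 5e-05, adjusted p = 0.0495, r = 0.20 with p = 0.281, permutation tests), with rho = 0.78 without IL-4457 and IL-4141. It did not pass in 27 of the 29 fits that left out a line, nor without mouse 2 of IL-1052, where rho was 0.70. The p of the pair lay at the cutoff applied to these fits, so a small change was enough to lose the call. Over 36 settings rho lay between 0.65 and 0.78.

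The Pearson pair was Cidec with G0s2, in opposite directions (r = -0.65, p = 0.00044, adjusted p = 0.0415, permutation tests). By rank the pair did not pass (rho = -0.15, p = 0.421), and without IL-4457 and IL-4141 r was -0.30, so the relation rests on these lines. Of the other pairs, Plin4 with Plin5 had rho = 0.56 (p = 0.00192, adjusted p = 0.14, permutation test) and Cidec with Vldlr rho = 0.54 (p = 0.00341, adjusted p = 0.164, permutation test). In all, 29 of the 36 pairs had a rho above 0, and 8 had an unadjusted p below 0.05 by rank, all 8 positive, against 12.6% of the 137556 correlations at that p and 10.2% both at that p and positive. Of the other 7 none passed the adjustment.

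For each gene the 3 tested genes most alike in their order over the 29 lines were listed by Spearman rho. For Cidec these were Slc35c1 (0.76), Metrnl and Ddx27, for Plin2 Slc16a1 (0.75), Zdhhc13 and Clint1, and for Plin4 Lmod2 (0.80), Rhbdd2 and Rapgef4. Those for Plin5 included Toe1 (0.76) and Edem3, and those for G0s2 Mtmr4 (0.82), Ints1 and Cad. Cd36 was most like Mtmr2 (0.77), Zfp318 and Smurf2, Vldlr most like Eif4b (0.78), Wdr5 and Gm15411, Mogat1 most like Sh2b2 (0.66), Gm17634 and Zc3h8, and among those most like Pparg were Decr2 (0.69) and Adhfe1. Each likeness is one of order and is picked as the highest among 15285 genes. With G0s2, 49 genes passed the adjustment, and with Mogat1 and Pparg 1 each. The 1 gene that passed with Mogat1 went in the opposite direction, so Sh2b2, Gm17634 and Zc3h8 did not pass. Decr2 and Adhfe1 did not pass with Pparg either.

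Body weight was compared with the levels because it is the only measure of size or fatness in the labels. Line means ranged from 14.7 g in IL-785 to 32.9 g in IL-4457. Over the 29 lines, with the mice of a line summed, 0 of the 9 genes changed with weight (edgeR), against 0.183% of all tested genes higher and 0.157% lower. At an unadjusted p below 0.05 there were 2 of the 9 and 1723 of all genes. DESeq2 and limma also called 0 of the 9.

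The largest slopes were those of Mogat1, at 1.69 ± 0.55 on the log2 scale per 10 g (± SE, adjusted p = 0.18), and Cidec, at 1.38 ± 0.54 (adjusted p = 0.311). The slope of Cidec was -0.01 without IL-4457, the heaviest line. G0s2 was at 0.91 ± 0.57 (adjusted p = 0.587), Plin4 at 0.53, Plin2 at 0.34, Pparg at 0.20 and Plin5 at 0.17, while Cd36 at -0.37 and Vldlr at -0.53 sloped the other way. By correlation of line means, 0% of all tested genes passed by rank, although 1023 had an unadjusted p below 0.05. The highest r among the 9 was that of Mogat1, at 0.36 (p = 0.0568, rho = 0.32 with p = 0.0949, adjusted p = 0.59 and 0.803, permutation tests). It was 0.24 without mouse 1 of IL-2156. For Cidec r was 0.28 (p = 0.141, permutation test) and -0.05 without IL-4457 and IL-785, the lines farthest in weight, while for G0s2 r went from 0.04 to 0.31.

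Within lines, where mates of the same genome differ in weight, 0 of the 9 genes changed either (edgeR with line and weight as terms), against 0.0393% of all tested genes in each direction. There were 4 of the 9 and 1264 of all genes at an unadjusted p below 0.05. The slope per 10 g was 2.74 ± 0.81 for Mogat1 (adjusted p = 0.25), 1.77 ± 0.47 for G0s2 (adjusted p = 0.215) and 1.71 ± 0.67 for Cidec (adjusted p = 0.475). DESeq2 called G0s2 and limma on log2(FPKM + 1) called Mogat1, 1 gene each. Without IL-2156 the slopes of Mogat1, Cidec, Pparg and Plin4 were -0.16, -0.10, -0.39 and -1.27, against 2.74, 1.71, 0.81 and 0.31 with it. The slopes of the other genes kept their sign without this line. Without mouse 1 of IL-2156 alone, the slope of G0s2 was 1.40 (edgeR, adjusted p = 0.92).

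IL-2156 had the widest gap in weight, with mouse 1 at 38.0 g and its mates at 27.7 and 25.3 g. In mouse 1 G0s2 was at 129 FPKM against 21.6 and 32.3 FPKM, and Plin2 at 329 FPKM against 153 and 207 FPKM. Cidec was at 1.94 FPKM against 0.24 and 0.18 FPKM, Pparg at 4.54 FPKM against 2.06 and 1.07 FPKM, and Cd36 at 22.9 FPKM against 17.6 and 9.37 FPKM. Plin4 was at 0.62 FPKM against 0.19 and 0.27 FPKM, and Mogat1, as given above, was far higher. Plin5 and Vldlr did not follow, at 13.3 FPKM against 10.2 and 14.7 FPKM and at 0.09 FPKM against 0.09 and 0.16 FPKM. Mouse 1 was thus the highest of the 3 for 8 of the 10 genes, and for 25.8% of all tested genes. The 8 include Cidea, which was not tested and lay near 0, at 0.12 FPKM against 0. The mouse was singled out after its values were seen. Marker transcripts of other cell types also differed between mouse 1 and its mates. The 8 adipocyte markers summed to 92.5 FPKM against 17.5 and 8.80 FPKM, nearly all of it Fabp4 at 90.6 FPKM, and Cfd was at 1.79 FPKM against 0 in both mates, while Plin1, Lep, Retn and Ucp1 were at 0. The 6 Kupffer cell markers summed to 92.4 FPKM against 390 and 182 FPKM. Their median over all mice was 87.1 FPKM, so mouse 1 lay near the median and its mates above it. The part of these transcripts in the values of mouse 1 was not tested, and neither were the differences of this 1 mouse on their own.

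**Figure D5:**
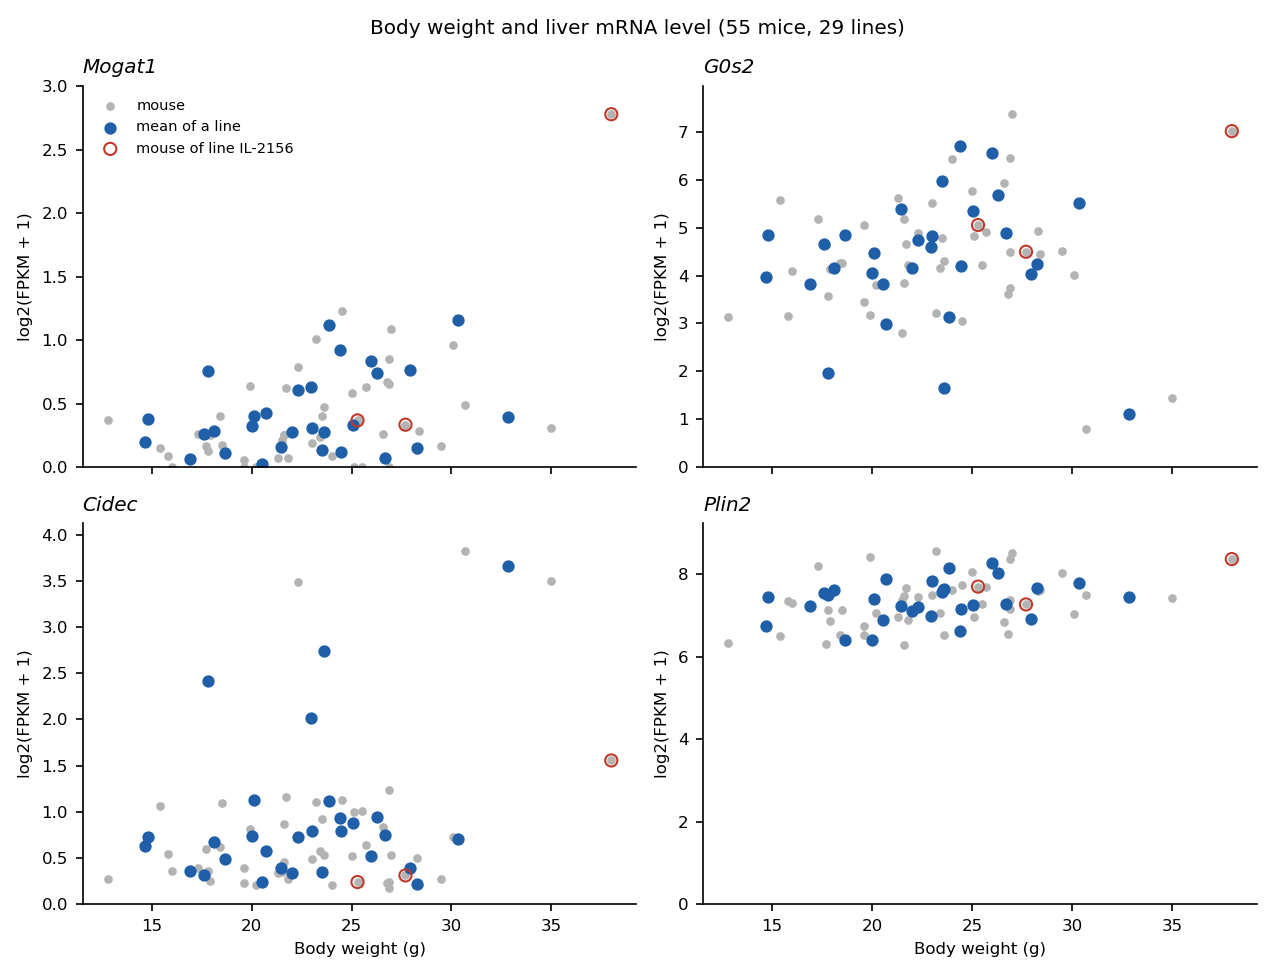
Level of Mogat1, G0s2, Cidec and Plin2 as log2(FPKM + 1) against body weight in grams; grey points are the 55 mice, blue points the means of the 29 lines, and red circles the mice of IL-2156. The heaviest mouse, at 38.0 g in IL-2156, is well above its mates for Mogat1 and G0s2, and no slope over the lines passed the test.

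A list of 35 other genes of lipid droplets, triglyceride synthesis, lipolysis, fatty acid uptake and lipoprotein assembly, all tested, was examined beside them. Of these, 30 differed among lines, or 85.7%, against 88.5% of all tested genes, with a median variance share between lines of 0.518 against 0.570. With weight over lines 0 changed, and within lines 1 rose, Fabp2, the intestinal type fatty acid binding protein, by 1.28 per 10 g on the log2 scale (edgeR, adjusted p = 0.0355). In the mice of IL-2156 Fabp2 was at 116, 32.0 and 35.1 FPKM, and without that line 0 of all tested genes changed with weight within lines, so the call of Fabp2 ended there. The genes with the highest variance share were Lpin1 (0.881) and Lpin2 (0.808), phosphatidate phosphatases that make diacylglycerol, and Agpat2 (0.816), which makes their substrate. The lowest were Plin1 (-0.113), Fabp2 (0.115) and Fabp4 (0.177). Without mouse 2 of IL-1052 the share was -0.395 for Plin1 and 0.432 for Fabp4.

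The lines with low G0s2 and high Cidec stood high in Lpin1 as well as in the cholangiocyte markers given above. Lpin1 ranged from 2.54 through 14.02 to 175 FPKM and was at 175 FPKM in IL-4141, at 125 and 108 FPKM in IL-4457 and at 91.8 FPKM in IL-2126. It was as high, at 160 and 112 FPKM, in IL-2680, where G0s2 was at 29.5 and 27.4 FPKM and Cidec at 0.41 and 1.00 FPKM. Lpin2 was at 144 FPKM in IL-4141, at 127 and 107 FPKM in IL-4457 and at 64.1 FPKM in IL-2126, over a median of 34.9 FPKM. These lines were picked after their values were seen, so their lipin levels carry no test. Of the marker lists, all 6 Kupffer cell, 6 stellate cell, 4 endothelial, 3 cholangiocyte and 6 hepatocyte genes differed among lines, as did 5 of the 6 tested adipocyte genes, against 88.5% of all tested genes. Without mouse 2 of IL-1052, 3 of the 6 adipocyte genes differed. With weight, 0 of any marker list changed.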

How the data were processed

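Liver mRNA was sequenced in 55 mice of 29 CC lines. The authors mapped fragments to mm9 with RSEM 1.2.18 and Ensembl annotation. They deposited expected counts, which RSEM estimated without normalization, TPM and FPKM, scaled for transcript length and library depth, and the isoform share in percent of its gene. RSEM divides fragments that fit several places, so shares of similar transcripts are less certain.

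Groups are the lines in the labels. The design text gives fewer lines with 3 mice than the labels do, and the labels were followed. No batch is named. The 10 genes and all lists were chosen with earlier results of these data known.

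Rounded expected counts were tested with edgeR 4.0.16 (TMM, filterByExpr, quasi-likelihood), among 47 mice of 21 lines, each line against the other 20, over 29 line sums for body weight per 10 g, and within lines. Shares were tested with limma 3.58.1, for genes with a maximum FPKM of at least 2 and at least 12 levels. Correlations used line means of log2(FPKM + 1) and 100000 permutations, whose smallest p is 1e-05. P-values were two-sided and adjusted by Benjamini-Hochberg over all features tested, with a threshold of 0.05. Raised lines used FPKM at 2 times the median. DESeq2 1.42.0, other filters, scales and left-out mice or lines were alternatives, and those that leave out mouse 2 of IL-1052 or mouse 1 of IL-2156, and the relation of share to level, were added after seeing the data. Named genes are the 10, their 3 most alike genes (some are not reported here), the adipocyte markers, and the 3 highest and 3 lowest of the pathway list in variance share, with those that changed with weight. Scripts in R 4.3.3 and Python 3.11.15 were tested on simulated data.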

Additional observations from a re-analysis of the deposited data

How the results depend on the processing

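With at least 10 counts in every mouse, 4 genes were left, all 4 called among lines, with 15 higher and 9 lower line contrasts. At 1.5 and 3 times the median, 62 and 24 combinations were raised. With each mouse as a unit, 2 genes (Cidec and Mogat1) changed with weight, but mice of a line are not independent. Within lines, DESeq2 and limma called 1 each. Slopes over lines turned for Cidec (-0.16) and Pparg (-0.047) without the 2 lines farthest in weight, for Plin4 (-0.086) and Plin5 (-0.048) with age as a covariate, for Cd36 (0.0094) with each mouse as a unit and for Vldlr (0.74) in lines with at least 2 mice. Within lines they turned without IL-2156 for Cidec (-0.10), Plin4 (-1.27), Mogat1 (-0.16) and Pparg (-0.39). None of these slopes passed a test. For pairs of genes, 0 passed with a pseudocount of 0.1, without IL-1052 and IL-2750, without mouse 2 of IL-1052 and in lines with at least 2 mice, and 0 to 1 when a line was left out. By percentages 1 isoform share passed. The cause of these changes was not tested.

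Counts over all genes moved too: with weight over lines, 52 genes changed, against 596 with each mouse as a unit, 83 without the 2 farthest lines, 71 by DESeq2, 141 with all genes kept and 0 by limma. Within lines 12 changed, against 23 without IL-1052 and IL-2750, 70 by DESeq2, 37 by limma and 0 without IL-2156. No paired analysis was possible because replicate numbers were only given in the order of the records. Depth limits Cidea, Mogat1, Vldlr, Plin4 and Cidec most.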
